A study of Bos taurus with 16 samples.

Results

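The comparison of feed intake among fast-growing steers was made in the liver of 8 of the 16 crossbred steers of the series, the 4 labelled high gain-high intake against the 4 labelled high gain-low intake. Members were taken from the phenotype label alone. All steers were male and, by the methods of the study, just under a year old when feeding began. They received the same high-concentrate diet with wet distillers grains with solubles ad libitum for 78 days. The 16 steers were chosen from a larger herd as the animals farthest from its mean gain and intake in 4 quadrants, so that each group holds extremes of its quadrant, and the other 8 steers were the low gain animals, again 4 at high intake and 4 at low intake. Total liver RNA of each steer was hybridised to 1 Affymetrix bovine gene array. By its methods the study considered breed when choosing steers, to keep any sire breed from being over-represented in a group. Its breed table gives equal Angus and equal Charolais shares in both high gain groups. Breed makeup was still not balanced. Simmental was a large component of the high gain-high intake group and was not listed as a breed of its own in the high gain-low intake group. The latter held a trace of a composite breed with Simmental in it and some unknown ancestry. Breed and intake therefore cannot be told apart. Steers were numbered 1 to 4 within a group in the order of the series, and a number shared between groups pairs nothing. By the study's methods 1 steer of each group was harvested on each day, but the labels do not give the day per steer, so that harvest day could not be fitted and no test here takes it into account. Below, high intake and low intake steers are the 4 and 4 high gain animals unless low gain is stated, every signal is on the log2 scale, and every difference is high intake minus low intake.

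Both groups put on weight quickly, and the low intake group did so on less feed. The ruminant liver makes most of the animal's glucose from propionate absorbed from the rumen, clears ammonia as urea, packages lipid, and secretes the growth factor IGF1 together with binding proteins that control its access to tissues. It also carries the cytochrome P450 and conjugating enzymes that oxidise and solubilise steroids, bile acids and plant compounds, many of which are induced by nuclear receptors that sense such compounds. Immediate early genes and heat shock genes answer hormonal and physical stimuli within minutes to hours and are therefore also sensitive to the time around death and sampling.

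The 8 arrays carried the profile of liver. Of the defining hepatocyte genes, ALB, TF and TTR, which encode the plasma proteins albumin, transferrin and transthyretin, lay above 20 on all 8 arrays, and APOB and CPS1 averaged 19.37 ± 0.68 and 20.17 ± 0.68 in high intake steers against 19.31 ± 0.20 and 20.36 ± 0.10 in low intake steers (SD, n = 4 each). APOA1 was the exception at 8.61 ± 0.38 in high intake and 8.77 ± 0.20 in low intake steers. None of 9 marker lists for hepatocytes and other liver or blood cells had a member called in either direction. Arrays in the first 8 columns of the deposited table had medians of 7.41 to 7.47 and those in the last 8 columns medians of 7.16 to 7.28. No label names what divides them. High intake steer 1 lay in the first 8 columns and high intake steers 2 to 4 in the last 8, while low intake steers 1 and 2 lay in the first 8 and low intake steers 3 and 4 in the last 8. Array position was therefore fitted as a block beside each main result. The first 8 columns also had a lower ceiling. On high intake steer 1 the highest value, 21.35, was shared by 28 transcript clusters, and on low intake steers 1 and 2 the highest values, 20.84 and 20.91, were shared by 46 and 45. On the 5 arrays of the last 8 columns the highest value lay between 22.48 and 22.75 and was shared by 1 to 8. The 58 transcript clusters at the highest value of 1 or more of the 8 arrays included no transcript that limma called by the rule given next (0 of 58).

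Few transcripts separated the groups. Called means below that limma gave an unadjusted p no larger than 0.05, and 652 of 26773 transcript clusters (2.44%) were called, where uniform p-values give 1339. Of these 237 were higher (0.885%) and 415 lower (1.55%) in high intake steers. By gene symbol 379 of 18444 were called (2.05%), with 128 higher (0.694%) and 251 lower (1.36%). No gene symbol passed the Benjamini-Hochberg adjustment, with a lowest adjusted p of 0.9999, so that every gene below is named from its unadjusted p. Beside its values by steer or its difference, most have the two-sided exact permutation p over the 70 choices of 4 of 8 steers, which cannot go below 0.0286. Where a value without 1 steer is given, the call was lost there unless stated otherwise. With array position as a block 1052 transcript clusters were called (3.93%), of which 534 were higher (1.99%) and 518 lower (1.93%), and 558 of the 652 were among them. By gene symbol the block gave 651 calls (3.53%), 335 higher (1.82%) and 316 lower (1.71%). The excess of lower over higher calls was therefore not kept with the block. The median difference over all transcript clusters was -0.051 as deposited and -0.002 with the block. Quantile normalization gave 423 higher and 348 lower, and subtracting each array's median 430 and 334.

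Direction went with signal level. Among transcript clusters in the lowest 25% of mean signal 32 were called higher and 145 lower, while in the highest 25% 100 were higher and 63 lower. With the block these were 56 and 213 in the lowest 25% and 206 and 50 in the highest 25%. Olfactory receptor genes, which are silent in most tissues, made up 806 of the measured symbols, and 21 were called lower and 4 higher. Over all symbols 1.36% were called lower and 0.694% higher. Calls with a difference of 1 or more, a doubling on the linear scale, numbered 9 higher and 14 lower.

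**Figure D1:**
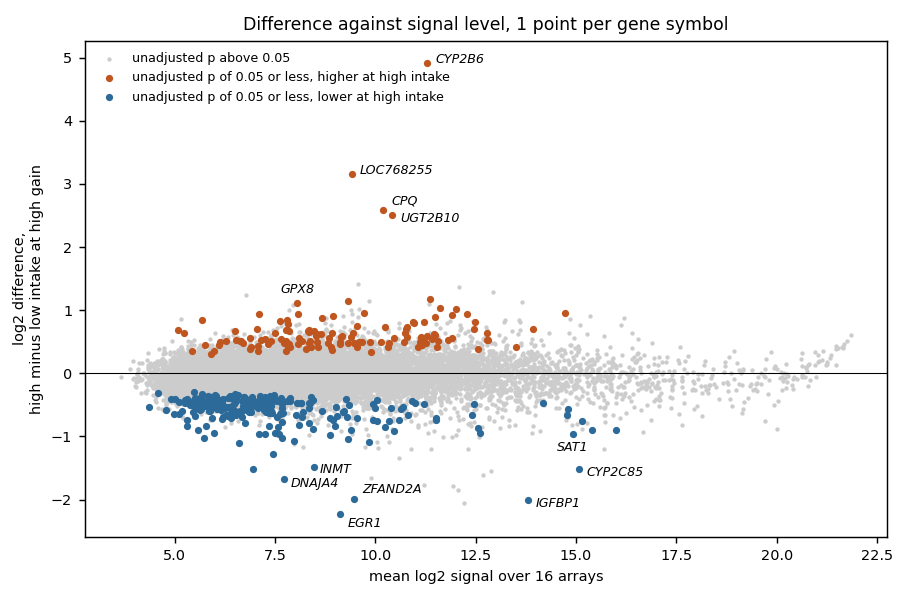
Difference between high and low intake steers at high gain (y axis, log2) against mean log2 signal over 16 arrays (x axis), with 1 point per gene symbol. Orange and blue points are those limma called (128 higher and 251 lower at high intake); the 4 points above 2 are CYP2B6, LOC768255, CPQ and UGT2B10.

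Of the transcript clusters called higher, the largest difference belonged to 12911291, which the annotation pairs with no gene symbol. It was 12.12, 16.19, 13.16 and 12.92 in high intake steers, against 8.10, 7.03, 6.23 and 7.35 in low intake steers, without overlap. The difference was 6.42 (standard error 1.67, exact permutation p = 0.0286), 85.7-fold on the linear scale and 6.21 with the block, and the call was kept without any 1 steer (5.56 to 6.91). At low gain it averaged 12.12 ± 4.06 in high intake and 10.11 ± 2.95 in low intake steers (SD, n = 4 each), and the contrast of the 2 intake differences, 4.41 (standard error 2.36), was not called.

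Among transcript clusters with a gene symbol, the 4 largest differences in favour of high intake included 2 enzymes of steroid and drug metabolism. CYP2B6, a cytochrome P450 that oxidises drugs and is a classic target of the nuclear receptor CAR, had a signal of 12.67, 15.96, 12.90 and 14.66 in high intake steers 1 to 4, against 6.80, 8.11, 13.47 and 8.17 in low intake steers 1 to 4. All 4 high intake livers were high and 3 of 4 low intake livers were low, with low intake steer 3 inside the high intake range. The difference was 4.91 (standard error 1.97), a 30.1-fold difference of geometric means, and 4.70 with the block. The exact permutation p was 0.0857. Leaving out high intake steer 2 gave 4.27, low intake steer 1 gave 4.13, low intake steer 2 gave 4.57 and low intake steer 4 gave 4.59.

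UGT2B10, a glucuronosyltransferase that conjugates steroids and other lipophilic compounds, read 11.53, 12.19, 9.61 and 12.35 in high intake steers, against 9.48, 9.70, 6.19 and 10.30 in low intake steers. Steer 3 was the lowest of each group, and the groups overlapped through high intake steer 3 alone. UGT2B10 differed by 2.50 (standard error 0.88, exact permutation p = 0.0857) and by 2.70 with the block. Without low intake steer 3 the difference was 1.59. NAT1, an arylamine N-acetyltransferase, was 10.36, 10.62, 10.19 and 11.12 in high intake steers and 10.13, 10.34, 9.55 and 10.04 in low intake steers, a difference of 0.56 (standard error 0.22, exact permutation p = 0.0571, block 0.59). It was 0.38 without high intake steer 4 and 0.40 without low intake steer 3.

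Other enzymes of the same kind were lower in high intake steers. CYP2C85, a further cytochrome P450 that was named for its difference and is in none of the gene lists, was 13.75, 14.18, 12.68 and 14.82 in high intake steers, against 15.19, 15.16, 17.06 and 14.09 in low intake steers, with low intake steer 3 highest and low intake steer 4 inside the high intake range. Its difference was -1.52 (standard error 0.71, exact permutation p = 0.0857) and -0.96 without low intake steer 3. The call was lost without high intake steers 1, 2 or 3 or low intake steers 1, 2 or 3 (-1.63 to -0.96). CES1, the main hepatic carboxylesterase, was 15.14, 15.24, 14.45 and 14.86 in high intake steers, against 16.17, 16.25, 14.92 and 15.94 in low intake steers, and differed by -0.90 (standard error 0.41, exact permutation p = 0.0857, block -0.70, not called), and the call was lost without any 1 steer other than high intake steer 2 or low intake steer 3, at -0.97 to -0.74. INMT, an N-methyltransferase of amines that uses S-adenosylmethionine, was 7.61, 9.15, 6.99 and 7.43 in high intake steers and 7.64, 10.64, 9.11 and 9.71 in low intake steers (difference -1.48, standard error 0.64, exact permutation p = 0.114). Without low intake steer 2 the INMT difference was -1.02, and its call was lost without high intake steers 1, 3 or 4 or low intake steers 2 or 4 (-1.42 to -1.02). Of the 35 measured members of the list of cytochrome P450 genes and regulators, which does not hold CYP2C85, 1 was called higher and 0 lower (2 and 0 with the block), of 54 phase II genes 2 each way, and the median differences of both lists, -0.06 and 0.00, lay close to the -0.05 of all symbols. Over all symbols 0.694% were called higher and 1.36% lower, and with the block 1.82% and 1.71%. Neighbouring genes of the CYP2C and UGT2B families are similar in sequence, and how far the probes separate them was not tested.

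**Figure D2:**
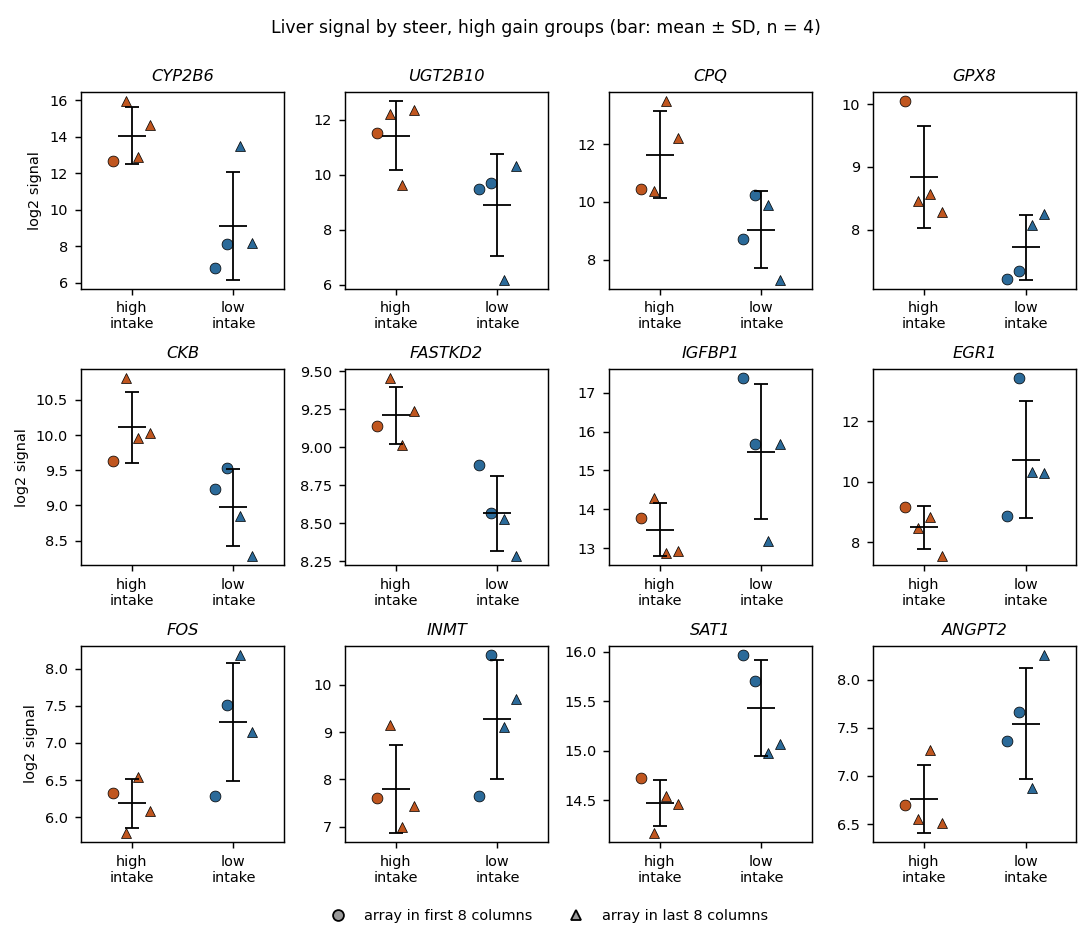
Log2 signal of 12 genes in each high gain steer, high intake on the left of each panel and low intake on the right; circles are arrays of the first 8 table columns, triangles those of the last 8, and bars the mean ± SD (n = 4). The top row and CKB and FASTKD2 are higher at high intake, and the remaining 6 genes are lower, with at least 1 overlapping steer for CYP2B6, UGT2B10, IGFBP1, EGR1, FOS, INMT and ANGPT2.

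Among the 10 genes higher in high intake steers with the smallest p-values, 8 had groups that did not overlap. The choice by small p on the same 8 steers favours groups without overlap, so that this count is not separate evidence. Of the 379 symbols called in either direction 111 had no overlap, and of all 18444 symbols 111 (0.602%) had none in the higher direction. CPQ, a secreted carboxypeptidase that splits small peptides, was 10.43, 10.38, 13.49 and 12.22 in high intake steers, against 8.71, 10.24, 9.90 and 7.31 in low intake steers. High intake steers 3 and 4 stood well above the rest, and high intake steers 1 and 2 lay just above low intake steer 2. The CPQ difference was 2.59 (standard error 0.74, block 2.54), with the smallest exact permutation p that 4 against 4 allows, 0.0286. It was 0.96 within the first 8 columns and 3.42 within the last 8.

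LOC768255, for which no name was annotated, was the most cleanly divided of the large differences with a gene symbol. Its signal was 9.87, 12.70, 10.75 and 10.51 in high intake steers and 7.76, 7.97, 7.70 and 7.75 in low intake steers, a difference of 3.16 (standard error 0.87, exact permutation p = 0.0286, block 3.05). The low intake livers were nearly equal (SD 0.12) while the high intake livers spread (SD 1.22).

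FASTKD2, a mitochondrial RNA-binding protein needed for mitochondrial ribosome assembly, was 9.14, 9.46, 9.01 and 9.24 in high intake steers, against 8.89, 8.57, 8.53 and 8.28 in low intake steers (difference 0.65, standard error 0.17, exact permutation p = 0.0286, block 0.69). Every high intake steer exceeded every low intake steer. CKB, the brain-type creatine kinase, was 9.63, 10.82, 9.97 and 10.04 in high intake steers against 9.23, 9.54, 8.85 and 8.27 in low intake steers, again without overlap (difference 1.14, standard error 0.36, exact permutation p = 0.0286, block 1.26). Within the first 8 columns the CKB difference was 0.24 and within the last 8 it was 1.71.

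KARS1, the lysyl-tRNA synthetase, was 12.82, 13.04, 12.62 and 13.11 in high intake steers, against 11.75, 11.66, 12.98 and 11.45 in low intake steers, where steer 3 alone lay within the high intake range (difference 0.94, standard error 0.27, exact permutation p = 0.0857). DNAJC22, a membrane-bound J-domain protein, was 9.83, 10.13, 9.77 and 9.86 in high intake steers against 9.02, 9.54, 9.27 and 9.20 in low intake steers without overlap (difference 0.64, standard error 0.19, exact permutation p = 0.0286). The 4 others were RASSF6, a Ras-association domain protein (difference 0.52), SLC44A3, of the choline transporter-like family (0.66), WBP11, a splicing factor (0.60), and VKORC1L1, a paralogue of the vitamin K epoxide reductase (0.53). Of these 4, WBP11 alone had overlapping groups. ZCRB1, a component of the minor spliceosome, had the fifth largest difference, with 11.50, 11.99, 12.80 and 12.77 in high intake steers and 11.02, 10.28, 10.66 and 12.42 in low intake steers (1.17, standard error 0.43, exact permutation p = 0.0857), and 0.90 without low intake steer 2.

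IGFBP1 was lower in the high intake livers. It encodes an insulin-suppressed binding protein that restrains IGF action and is commonly raised when energy supply is short. Its signal was 13.77, 14.30, 12.89 and 12.93 in high intake steers, against 17.39, 15.68, 13.18 and 15.68 in low intake steers. Low intake steers 1, 2 and 4 lay above every high intake steer, and low intake steer 3 lay among them. The difference was -2.01 (standard error 0.77, exact permutation p = 0.0857), 4.03-fold on the linear scale, and -1.79 with the block, still called. Without low intake steer 1 it was -1.38, and without high intake steer 3 it was -1.82.

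IGF1R, the IGF1 receptor, was 7.15, 7.17, 7.17 and 7.18 in high intake steers and 7.64, 7.70, 7.56 and 7.26 in low intake steers. The groups did not overlap, and the high intake SD of 0.01 is far below the 0.19 of low intake steers. The difference was -0.37 (standard error 0.17, exact permutation p = 0.0286), or -0.32 with the block, and the call was kept without low intake steer 4 and lost with the block and without any 1 of the other 7 steers. IGF1 itself was 17.06, 16.04, 16.43 and 15.97 in high intake and 16.51, 16.66, 16.54 and 14.18 in low intake steers (difference 0.40, standard error 0.52, exact permutation p = 0.8), and the growth hormone receptor GHR differed by 0.26 (standard error 0.52, exact permutation p = 0.857). Of 36 measured genes of the insulin, growth hormone and IGF axis 0 were called higher and 2 lower, where 1.36% of all symbols were called lower.

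Immediate early genes were lower in the high intake livers more often than higher. Of 34 measured, 5 had positive differences, 0 were called higher and 3 lower (5 lower with the block), and the list median was -0.32, against -0.05 for all symbols. The share of all symbols called lower was 1.36%, and 1.71% with the block. At low gain the list went the other way, with a median of 0.20 and 26 of 34 differences positive. EGR1, a zinc finger transcription factor induced within minutes of many stimuli, was 9.18, 8.48, 8.83 and 7.53 in high intake steers, against 8.88, 13.45, 10.32 and 10.29 in low intake steers. Low intake steer 2 stood far above the rest, and low intake steer 1 lay inside the high intake range. The EGR1 difference was -2.23 (standard error 0.75, exact permutation p = 0.0571, block -2.18) and -1.32, still called, without low intake steer 2.

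FOS, the partner of JUN in the AP-1 factor, was 6.33, 5.78, 6.55 and 6.08 in high intake steers and 6.28, 7.51, 8.19 and 7.15 in low intake steers (difference -1.10, standard error 0.41, exact permutation p = 0.0857). Here low intake steer 3 was highest, and without it the difference was -0.79. FOS lay below its array's own 25th percentile on 3 of 8 arrays. FOSL2, a FOS-related AP-1 subunit, differed by -0.49 (standard error 0.21, exact permutation p = 0.0571), by -0.34 without high intake steer 4, by -0.37 without low intake steer 2 and by -0.47 without high intake steer 2. FOSB, a further AP-1 subunit, and KLF4, a zinc finger factor, both list members singled out after their values were seen, were called with the block and not without it, at -0.36 and -0.33. JUN, singled out in the same way, was 10.92, 9.76, 9.81 and 8.97 in high intake steers against 9.36, 12.45, 11.22 and 11.14 in low intake steers, and its difference of -1.18 was not called (exact permutation p = 0.229).

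Among the 41 measured members of the list of heat shock proteins and co-chaperones 1 was called higher (DNAJC22, above) and 2 lower (DNAJA4 and FKBP4). The study reported DNAJC22 as differentially expressed on the same arrays, so its call is not independent evidence. Over all symbols 0.694% were called higher and 1.36% lower. The list median was -0.22, against -0.05 for all symbols. At low gain the list was also lower at high intake, with a median of -0.35 and 4 of 41 differences positive. HSPH1, a large heat shock protein of the HSP110 class that was singled out after its values were seen, was 14.63, 13.15, 11.36 and 9.56 in high intake steers, against 10.43, 16.40, 13.70 and 16.38 in low intake steers. Low intake steers 2 and 4 were highest, low intake steer 1 was low, and high intake steer 1 was the highest of its group. Its difference of -2.05 had a standard error of 1.31 (exact permutation p = 0.314).

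Other genes were picked from the list after their values were seen, for an order of steers like that of HSPH1, and are given as a description only. The co-chaperones BAG3 and DNAJB1 and the chaperones HSP90AA1 and HSPA8 were highest in low intake steers 2 and 4 and higher in high intake steer 1 than in high intake steers 2 to 4, with differences of -1.62, -1.79, -1.20 and -0.82, none of them called. DNAJA4, a J-domain co-chaperone, was 8.35, 7.80, 7.38 and 6.22 in high intake steers, against 7.60, 10.51, 7.64 and 10.70 in low intake steers (difference -1.68, standard error 0.67, exact permutation p = 0.2). ZFAND2A, a heat-inducible zinc finger protein outside the list, was 10.69, 9.28, 9.15 and 7.95 in high intake steers against 8.96, 11.34, 10.12 and 14.60 in low intake steers, and its difference of -1.99 (exact permutation p = 0.2) was -0.87 without low intake steer 4. It was not called with the block, or without high intake steers 2, 3 or 4 or low intake steers 2 or 4 (-1.99 to -0.87).

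DNAJA4 lost its call without low intake steer 2 (-1.21), low intake steer 4 (-1.15) or high intake steer 4 (-1.27). The HSP90 co-chaperone FKBP4 differed by -0.94 (exact permutation p = 0.257) and by -0.55 without low intake steer 2 or -0.64 without low intake steer 4, and it was not called with the block, or without high intake steers 2, 3 or 4 or low intake steers 2 or 4 (-1.03 to -0.55). HSPA6, an inducible HSP70, and PPID, a cyclophilin that binds HSP90, are not in the list, were named after their values were seen and differed by -1.51 (exact permutation p = 0.143) and -1.09 (exact permutation p = 0.114). Without low intake steer 4 they were -0.87 and -0.84, and both also lost their call without low intake steer 2 or high intake steers 3 or 4, at -1.37 to -1.28 for HSPA6 and -0.99 to -0.82 for PPID. Time of day, interval from death to freezing and RNA quality were not given per steer, and their part in these genes was not tested.

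**Figure D3:**
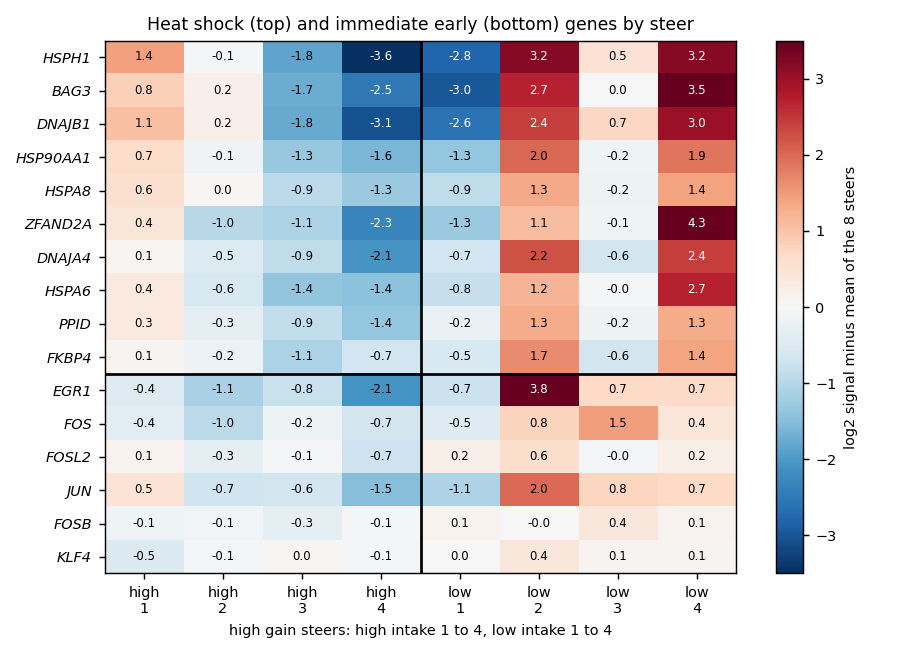
Log2 signal minus the mean of the 8 high gain steers for 10 heat shock and related genes (top) and 6 immediate early genes (bottom), with high intake steers 1 to 4 left of the line and low intake steers 1 to 4 right of it. Low intake steers 2 and 4 are red across the heat shock rows while low intake steer 1 is blue, and EGR1 is highest in low intake steer 2. Most heat shock rows were picked after their values were seen, several for this order of steers, so that their likeness follows in part from the choice. JUN, FOSB and KLF4 were also picked after their values were seen.

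ANGPT2 and CLEC1B, which act in vessels, were among the 10 lower genes with the smallest p-values. ANGPT2, the vascular ligand angiopoietin 2, was 6.70, 6.55, 7.27 and 6.51 in high intake steers, against 7.37, 7.66, 6.88 and 8.26 in low intake steers, and low intake steer 3 lay inside the high intake range. The difference was -0.79 (standard error 0.25, exact permutation p = 0.0571, block -0.83). CLEC1B, the receptor for podoplanin found on platelets and in liver sinusoids, was 9.67, 9.41, 10.01 and 9.43 in high intake steers against 10.25, 10.44, 9.94 and 10.86 in low intake steers (difference -0.74, standard error 0.23, exact permutation p = 0.0571). Low intake steer 3 was again the one that overlapped.

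TFPI, the inhibitor of the tissue factor pathway of clotting, was 7.83, 6.57, 7.46 and 7.12 in high intake steers and 7.54, 8.28, 7.59 and 9.64 in low intake steers (difference -1.02, standard error 0.39, exact permutation p = 0.114), or -0.56 without low intake steer 4 and -0.80 without high intake steer 2. CNN1, the smooth muscle protein calponin, was 7.23, 7.07, 6.78 and 7.29 in high intake steers against 7.19, 9.35, 8.03 and 7.62 in low intake steers (difference -0.96, standard error 0.36, exact permutation p = 0.0857), or -0.52 without low intake steer 2. TPM1, a tropomyosin of actin filaments, differed by -0.71 (exact permutation p = 0.114), or -0.48 without low intake steer 2, with the call lost without high intake steers 2 or 3 or low intake steers 2 or 4 (-0.66 to -0.48). In the smooth muscle and actin list 2 of 47 were called lower and 0 higher, of 52 complement and coagulation genes 1 was lower and 0 higher, and of 56 collagens and matrix enzymes none was called. Over all symbols 1.36% were called lower. The endothelial marker list had a median of -0.13 with 0 calls among 17, its mean signal spanning 9.71 to 10.27 in high intake and 10.01 to 10.49 in low intake steers. In whole liver RNA, fewer cells of a type and less RNA per cell cannot be told apart.

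SAT1, the acetyltransferase that starts the breakdown of spermidine and spermine, was among the 10 genes lower in high intake steers with the smallest p-values. It was 14.72, 14.16, 14.55 and 14.46 in high intake steers, against 15.97, 15.71, 14.98 and 15.07 in low intake steers, without overlap. No overlap in this direction was found for 152 of 18444 symbols (0.824%), and in either direction for 263 (1.43%). SAT1 was named for its small p on the same 8 steers, a choice that favours groups without overlap. Low intake steers 1 and 2, on arrays of the first 8 columns, were the highest. The difference was -0.96 (standard error 0.28, exact permutation p = 0.0286) and -0.81 with the block, -1.12 within the first 8 columns and -0.63 within the last 8.

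Most of the others of these 10 read in the lower part of the array's range. RALYL, an RNA-binding protein, PSKH1, a serine kinase, and the olfactory receptors OR10AG65 and OR51F23 averaged between 5.38 and 6.63 in high intake steers and between 6.21 and 7.59 in low intake steers. RALYL and OR51F23 lay below their array's own 25th percentile on 6 of 8 arrays, PSKH1 on 4 and OR10AG65 on 0. LOC530077 was 6.28 ± 0.23 in high intake and 6.97 ± 0.28 in low intake steers (SD, n = 4 each), below the 25th percentile on 2 arrays, while LOC511229 and LOC504861 differed by -0.96 and -0.85 at means of 7.02 and 7.30 in high intake and 7.98 and 8.15 in low intake steers.

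Of 67 measured ER-Golgi coat and SNARE genes 3 were called higher and 0 lower (4 and 0 with the block). Over all symbols 0.694% were called higher, or 1.82% with the block. SFT2D2, of the SFT2 family of Golgi transport proteins, was 11.36, 11.44, 11.56 and 11.58 in high intake steers against 11.37, 10.81, 11.20 and 10.91 in low intake steers (difference 0.41, standard error 0.17, exact permutation p = 0.0571), or 0.32 to 0.38 without low intake steers 2 or 4 or high intake steers 3 or 4. SEC24A, the cargo-binding subunit of the COPII coat, and COPB2, a subunit of the COPI coat, differed by 0.42 (exact permutation p = 0.0857) and 0.38 (exact permutation p = 0.0857), and neither kept its call with the block. The call was also lost for SEC24A without high intake steers 1, 3 or 4 or low intake steers 1, 2 or 4 (0.32 to 0.42), and for COPB2 without high intake steers 1 or 3 or low intake steers 1, 2 or 4 (0.27 to 0.39).

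Of 58 proteasome and ubiquitin genes 43 had positive differences, 2 were called higher and 1 lower (also 2 and 1 with the block), and the median was 0.09. Over all symbols 0.694% were called higher and 1.36% lower, or 1.82% and 1.71% with the block. PSMA1, of the catalytic core, was 10.69, 11.01, 11.03 and 11.07 in high intake steers, against 10.62, 9.94, 10.77 and 10.51 in low intake steers (difference 0.49, standard error 0.20, exact permutation p = 0.0571), 0.32 without low intake steer 2, 0.46 without high intake steer 3 and 0.45 without high intake steer 4. PSMD5, an assembly chaperone of the 26S proteasome, differed by 0.58 (exact permutation p = 0.171) and by 0.34 without high intake steer 4, and was not called with the block, or without high intake steers 1, 2 or 4 or low intake steers 1, 2 or 4 (0.34 to 0.64). The deubiquitinase USP44, lower by 0.35 on the log2 scale in high intake steers, lay below the 25th percentile on 7 of 8 arrays. It lost its call without high intake steers 1, 3 or 4 or low intake steers 2, 3 or 4 (-0.35 to -0.29). The study reported PSMD5, USP44 and PSMA5, which was called with the block only, as differentially expressed on the same arrays. Their calls are therefore not independent evidence. Among 49 autophagy genes 1 was called, a share near the 2.05% of all symbols. It was EI24, an ER membrane protein needed for autophagy (0.49, standard error 0.18, exact permutation p = 0.0571), with 0.35 without high intake steer 3. With the block 4 were called higher, EI24 and, at 0.39, 0.37 and 0.48, ATG2A, ATG9A and LAMP2, named after their values were seen, where 1.82% of all symbols were called higher with the block.

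Redox genes were called in both directions. Of 46 antioxidant and selenium genes 3 were higher and 1 lower (2 and 1 with the block), with a median of 0.01. The lower call was PSTK, which the study reported as differentially expressed on the same arrays, so it is not independent evidence. The shares over all symbols were 0.694% higher and 1.36% lower, or 1.82% and 1.71% with the block. GPX8, a glutathione peroxidase of the endoplasmic reticulum, was 10.05, 8.46, 8.56 and 8.29 in high intake steers, against 7.22, 7.34, 8.07 and 8.25 in low intake steers. The groups did not overlap, yet high intake steer 1 stood apart, and without it the difference of 1.12 (standard error 0.45, exact permutation p = 0.0286) was 0.72. The call was also lost without low intake steers 1 or 2, at 0.95 or above. GPX8 differed by 2.77 within the first 8 columns and 0.28 within the last 8.

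PRDX3, the mitochondrial peroxiredoxin, was 14.97, 15.52, 14.13 and 15.31 in high intake steers, against 13.68, 14.50, 13.40 and 14.53 in low intake steers (difference 0.95, standard error 0.39, exact permutation p = 0.0857), 0.74 without low intake steer 3, and 0.78, 0.85 and 0.84 without high intake steers 2 and 4 and low intake steer 1. GLRX5, a mitochondrial glutaredoxin of iron-sulfur cluster assembly, was 11.06, 11.50, 10.22 and 11.73 in high intake steers against 10.41, 10.15, 10.47 and 10.56 in low intake steers (difference 0.73, exact permutation p = 0.114), and it was not called with the block, or without any 1 steer other than high intake steer 3 (0.53 to 0.78). PSTK, the kinase that prepares the selenocysteine tRNA, was lower without overlap, at 6.69, 6.60, 6.87 and 6.60 in high intake and 6.88, 7.21, 7.51 and 6.97 in low intake steers (difference -0.45, standard error 0.18, exact permutation p = 0.0286), or -0.33 without low intake steer 3 and -0.42 without high intake steers 2 or 4.

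Central metabolic lists held few calls. Nothing was called among 28 genes of propionate use and gluconeogenesis, 29 of glycolysis, 27 of glycogen metabolism, 27 of cholesterol synthesis, 24 of bile acids, 48 of the urea cycle and amino acid breakdown, 27 apolipoprotein genes, 76 respiratory chain subunits or 63 ribosomal proteins, and their medians lay between -0.08 and 0.06. With the block 3 of these genes were called. They were the apolipoprotein APOE (0.68) and the lipoprotein-bound lactonase PON3 (1.14), both higher, and the ribosomal protein RPS24 (-0.33), lower. Over all symbols 2.05% were called, or 3.53% with the block. In the fatty acid synthesis list 1 of 27 was called, MID1IP1, which promotes polymerisation of acetyl-CoA carboxylase. It was 9.21, 8.91, 9.22 and 8.79 in high intake steers, against 10.76, 9.22, 10.01 and 9.75 in low intake steers (difference -0.90, standard error 0.31, exact permutation p = 0.0571), and without low intake steer 1 it was -0.62. PEX11A, a peroxisome division factor, was the 1 call of 39 in fatty acid oxidation (-0.49, exact permutation p = 0.114), not called with the block, or without high intake steers 1 or 4 or low intake steers 1, 2 or 3 (-0.45 to -0.39). The triglyceride synthesis list of 36 had LOC407226, for which the annotation gives MOGAT2 as a synonym, as its 1 call (-0.43, exact permutation p = 0.0857), at a signal below the 25th percentile on all 8 arrays and with the call lost without high intake steers 2, 3 or 4 or low intake steers 1 or 3 (-0.42 to -0.29).

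Of 41 genes of metallothioneins, zinc and iron handling 1 was called higher and 0 lower, and of 50 sugar, organic ion and lipid transporters likewise 1 and 0, shares near the 2.05% called over all symbols. With the block 3 were called higher in the first list and 0 in the second, with ATP7B, a copper transporter (0.48), and ACVR1, a receptor of the BMP family (0.48), added in the first. Over all symbols the block gave 1.82% higher and 1.71% lower. TMPRSS6, the liver protease that restrains hepcidin, was 11.54, 11.45, 10.81 and 11.93 in high intake steers and 10.94, 10.75, 10.69 and 11.21 in low intake steers (difference 0.54, standard error 0.22, exact permutation p = 0.0857), or 0.37 without high intake steer 4, with the call lost also without high intake steer 1 or low intake steers 2 or 3, at 0.47 to 0.50. SLC2A9, a urate transporter, differed by 0.48 (exact permutation p = 0.0857), not called with the block, or without high intake steers 1, 3 or 4 or low intake steers 1, 2 or 4 (0.36 to 0.48). In the mitosis list of 87, where the block gave 2 higher and 0 lower, SKA2, of the spindle and kinetochore complex, was higher (0.55, exact permutation p = 0.0571) and CENPK, a centromere protein, lower (-0.37, exact permutation p = 0.0571). SKA2 was not called without high intake steers 1, 2 or 3 or low intake steers 2, 3 or 4 (0.45 to 0.55). CENPK was not called with the block, or without high intake steers 2, 3 or 4 or low intake steers 2 or 3 (-0.41 to -0.24).

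None was called among 41 interferon-stimulated genes, 38 acute phase proteins and 31 antigen presentation genes, and with the block RFX5, a regulator of MHC class II genes, was called in the last of these lists (0.47). Of 54 chemokines, receptors and their signalling partners 1 was higher and 2 lower, or 3 and 2 with the block, which added the chemokine CX3CL1 (0.46) and the scavenging receptor ACKR4 (0.64). The shares over all symbols were 0.694% higher and 1.36% lower, or 1.82% and 1.71% with the block. CCL19, a chemokine that draws T cells and dendritic cells, was 7.80, 8.23, 7.86 and 7.86 in high intake steers, against 7.22, 7.60, 7.66 and 7.39 in low intake steers (difference 0.48, standard error 0.18, exact permutation p = 0.0286), or 0.38 without high intake steer 2 and 0.39 without low intake steer 1. The calcium-dependent kinases CAMK2B and PTK2B were lower, CAMK2B without overlap with 7.04 to 7.86 in high intake against 7.87 to 8.32 in low intake steers (difference -0.54, exact permutation p = 0.0286), and PTK2B by -0.60 (standard error 0.22, exact permutation p = 0.0571). They were -0.39 without high intake steer 4 and -0.48 without high intake steer 1. The study reported both kinases among its differentially expressed chemokine signaling genes on the same arrays, so their calls are not independent evidence. The Kupffer cell and macrophage markers had the highest median of the 46 lists, 0.19 (0.35 with the block), with 0 of 17 called and a mean signal spanning 9.50 to 11.23 in high intake and 9.61 to 11.15 in low intake steers.

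**Figure D4:**
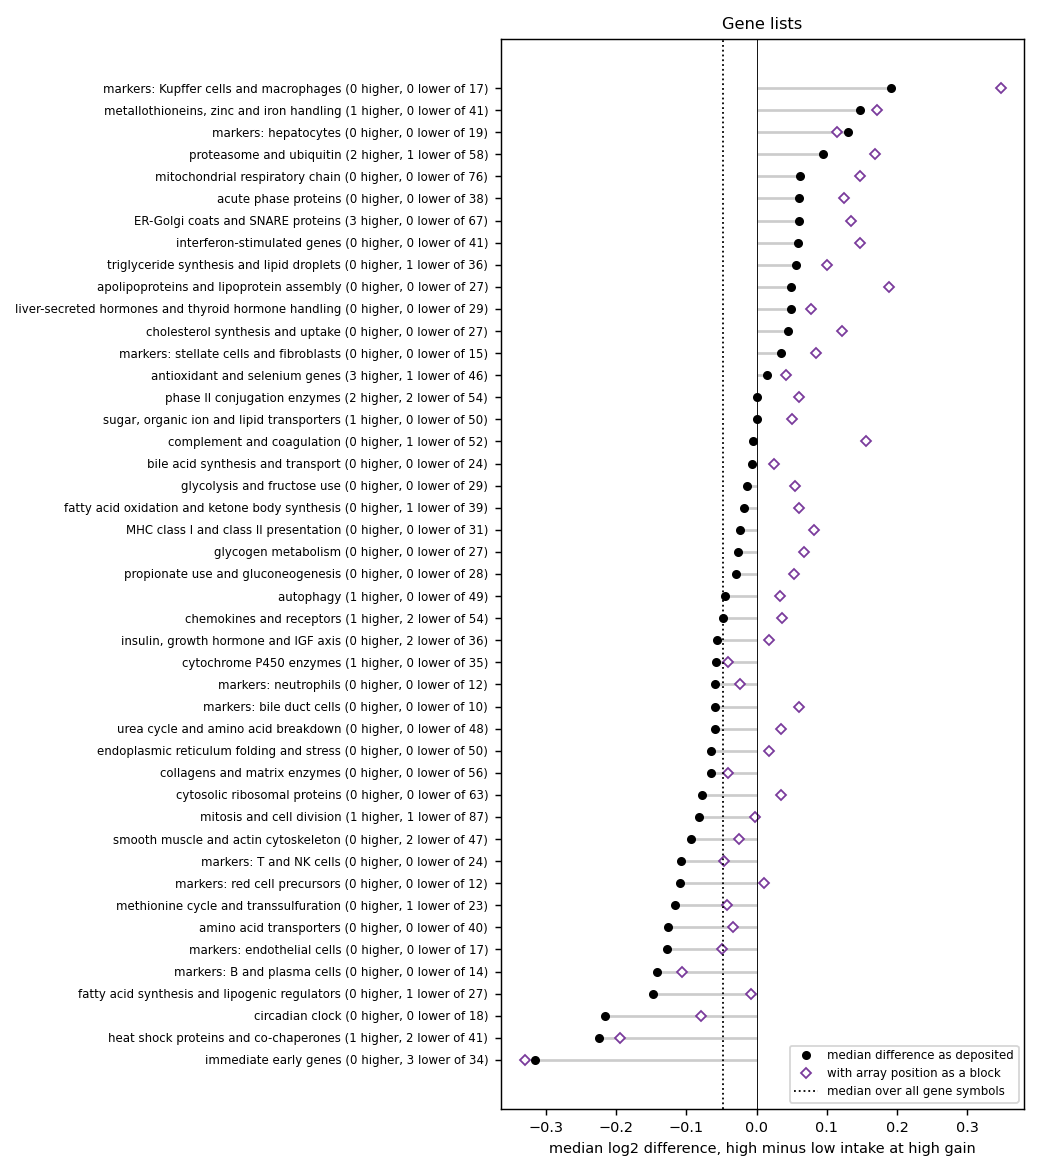
Median log2 difference, high minus low intake at high gain, of each gene list as deposited (black) and with array position as a block (purple), with the numbers of members called higher and lower. The dotted line is the median over all gene symbols (-0.05), and immediate early genes (-0.32) and heat shock genes (-0.22) lie lowest.

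Of the 12 genes the study assayed by qRT-PCR, 11 were matched to a transcript cluster with 1 gene symbol, and 3 were called, NAT1 higher and IGFBP1 and PTK2B lower. TAP2 was not matched here, although the study reports array values for it. The study chose the qRT-PCR genes on the same samples, so that their calls are not independent evidence. In the study's qRT-PCR none of NAT1, IGFBP1 and PTK2B was significant, and PTK2B went the opposite way to its array signal. The fold changes it gave for them compared other pairs of groups than the pair compared here. The other matched genes were DNAJB2 (-0.36), AGPAT3 (0.42), NCAPG (-0.25), PLK3 (-0.25), TIGAR (0.22), SMAD6 (0.15), FABP3 (-0.09) and PPP1CA (-0.05), and none of these 8 was called.

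The sign of the intake difference at low gain was compared for the genes called at high gain. Of the 379 called symbols 177 (46.7%) had the same sign between the intake groups at low gain, where 868 of 26773 transcript clusters (3.24%) were called, against 51.1% of all symbols, and of the 652 called transcript clusters 332 (50.9%) did, against 51.7% of all. Both shares lie near that of all features. Symbols called in both were 9 with the same sign and 7 with opposite signs. The difference between the 2 intake differences was tested as a contrast of its own, and 464 of 18444 symbols (2.52%) were called there. Since this contrast contains the high gain difference, genes called at high gain start with an advantage in it.

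IGFBP1 turned round between gain groups. At low gain it averaged 14.38 ± 1.31 in high intake and 11.84 ± 0.98 in low intake steers (SD, n = 4 each), a difference of 2.54 (standard error 0.77), against -2.01 at high gain. The contrast of the differences was -4.55 (standard error 1.09), past the unadjusted threshold of 0.05 without and with the block. The study chose IGFBP1 for qRT-PCR on the same samples, so this contrast is not independent evidence. EGR1 differed by 1.15 at low gain, with a contrast of -3.38 (standard error 1.06). CPQ and UGT2B10 were at -0.90 and -0.86 at low gain, with contrasts of 3.49 and 3.37. CYP2B6 was higher at high intake in both, 2.58 (standard error 1.97) at low gain, with a contrast of 2.32 that was not called, and RASSF6 was called in the same direction in both (0.52 at high gain and 0.40 at low gain).

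**Figure D5:**
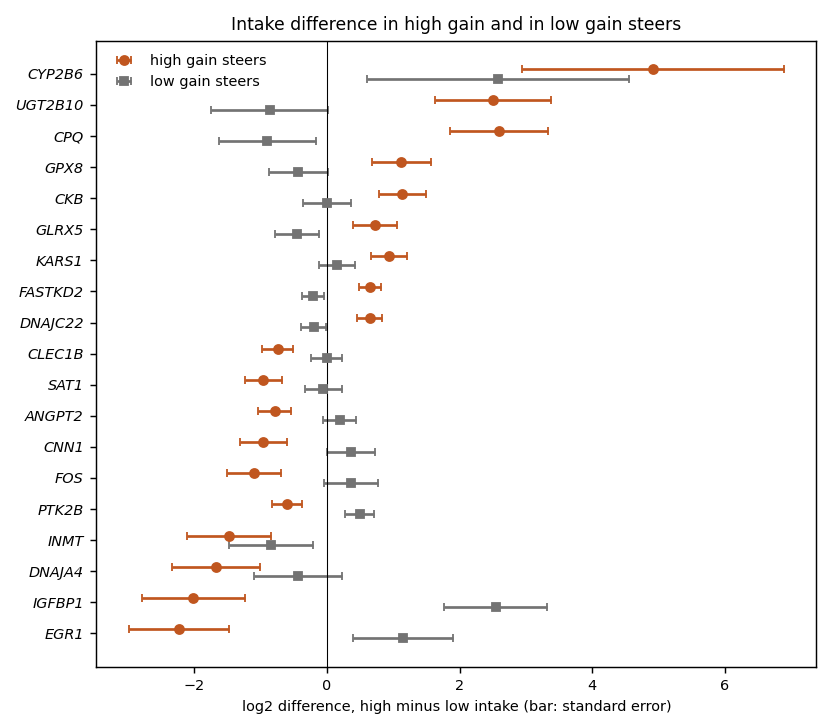
Log2 difference, high minus low intake, with its standard error in high gain steers (orange circles) and low gain steers (grey squares) for 19 genes. CYP2B6 and INMT lie on the same side of 0 in both, while IGFBP1 is at -2.01 in high gain and 2.54 in low gain steers.

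A single transcript cluster (0.00374%) passed the adjustment over all 26773. Transcript cluster 12912549, which the annotation pairs with no gene symbol, was 4.55, 4.44, 4.92 and 4.39 in high intake steers, against 6.21, 6.46, 6.76 and 6.08 in low intake steers. The groups were separated by more than a log2 unit. Its difference was -1.80 (standard error 0.23), with an adjusted p in limma of 0.022 and of 0.040 with the block. It was dim, below the array's 25th percentile on 6 of 8 arrays, and did not pass when the 8 high gain arrays were fitted alone. Low gain steers averaged 4.96 ± 0.42 at high intake and 5.01 ± 0.31 at low intake, a difference of -0.06. Among the other transcript clusters without a symbol, 12756695, with the third smallest p of all, was 12.06, 12.66, 12.29 and 12.01 in high intake steers and 10.47, 10.15, 11.23 and 10.39 in low intake steers, without overlap (difference 1.70, standard error 0.35, exact permutation p = 0.0286). Groups did not overlap for 413 of 26773 transcript clusters (1.54%) and for 195 of the 652 called. A choice by small p favours groups without overlap.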

How the data were processed

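Liver RNA of 16 steers was measured on Affymetrix Bovine Gene 1.1 ST arrays, 1 per steer and 4 per group. The deposited values are log2 signals per transcript cluster. RMA, preceded by a Signal Space Transformation and a normalization on GC count, was run by the authors in Expression Console. The submitters' processing notes also name Transcriptome Analysis Console. The sources used here do not give versions or the genome build. Values were used as deposited.

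limma 3.58.1 (R 4.3.3) was fitted to all 16 arrays with 1 mean per group, so that the 4 groups share 1 estimate of the spread. The contrast was high gain-high intake minus high gain-low intake, with Benjamini-Hochberg adjustment over 26773 transcript clusters. Calls rest on unadjusted p-values, which are not printed. Named genes also had a two-sided exact permutation test over the 70 choices of 4 of 8 steers. The code was tested on simulated data. Replicates are separate steers, and 4 arrays per group limit the precision.

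Of the transcript clusters 18790 had 1 gene symbol in the platform annotation, 385 several and 7598 none, giving 18444 symbols. Where several clusters shared a symbol, the one with the highest mean was used. Of 1829 list entries 133 were not matched to a transcript cluster with 1 gene symbol, which does not mean that the array lacks them.

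Named genes were the 10 higher and 10 lower with the smallest p, the 5 higher and 5 lower with the largest difference among those called, called or leading members of 46 gene lists, and the qRT-PCR genes. HSPA6, PPID, HSPH1, BAG3, DNAJB1, HSP90AA1, HSPA8, JUN, FOSB and KLF4, genes called only with the block and transcript clusters without a symbol were named after their values were seen. The groups compared and the lists were chosen with earlier results of these data known. Alternatives were array position as a block, the 8 arrays alone, no moderation, trend and robust moderation, quantile or median scaling, a signal filter, array weights, averaged clusters and leaving out each steer. Scaling combined with the block was added after seeing the data.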

Additional observations from a re-analysis of the deposited data

Results flagged for a closer look

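In 38 of the 102 named genes the intake difference at high gain differed from that at low gain with an unadjusted limma p no larger than 0.05, and none passed adjustment. The values are the high gain difference minus the low gain difference on the log2 scale. Positive values were 3.49 for CPQ, 3.37 for UGT2B10, 1.78 for PON3, 1.55 for GPX8, 1.18 for GLRX5, 1.14 for CKB, 0.997 for NDUFS6, 0.89 for SEC61B, 0.86 for FASTKD2, 0.84 for DNAJC22, 0.75 for PSMA1, 0.73 for NAT1, 0.71 for TIGAR, 0.68 for WBP11, and 0.62 each for VKORC1L1 and COPB2. Negative values were -4.55 for IGFBP1, -3.38 for EGR1, -1.46 for FOS, -1.32 for CNN1, -1.09 for PTK2B, -1.08 each for OR10AG65 and DMGDH, -0.996 for MID1IP1, -0.98 for ANGPT2, -0.90 for SAT1, -0.87 for RALYL, -0.78 for LIPC, -0.77 for LOC511229, -0.74 for CLEC1B, -0.72 for LOC530077, -0.71 for OASL, -0.68 for CENPK, -0.67 for FABP3, -0.64 for CAMK2B, -0.60 each for NCAPG and PLK3, and -0.50 for USP44. Over all symbols 2.52% were called in this contrast. Most of the genes listed were named for a difference at high gain, which is part of the contrast. FABP3, NCAPG, PLK3 and TIGAR were named as qRT-PCR genes, and IGFBP1, PTK2B and NAT1 are qRT-PCR genes too. The study chose those genes on the same samples, so their contrasts are not independent evidence. OASL lay below its array's own 25th percentile on all 8 high gain arrays, USP44 on 7, and NCAPG and RALYL on 6.

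A steer stood apart from the other 3 of its group in 9 of the 204 groups of 4 tested (4.41%), by Dixon's criterion at the 95% level, which flags about 5% of groups by chance. Among high intake steers these were steer 1 for PSMA1 (10.69), GPX8 (10.05) and ALB (21.35) and steer 2 for CCL19 (8.23) and DMGDH (11.53). Among low intake steers they were steer 1 for KYNU (12.96), steer 2 for TIGAR (7.59), steer 3 for SEC24A (13.70) and steer 4 for IGF1 (14.18). The ALB value of high intake steer 1 is the ceiling of its array, shared by 28 transcript clusters, and that steer's array is the only one of its group in the first 8 table columns.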

How the results depend on the processing

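No paired analysis was possible because the labels give neither a replicate number shared between groups nor the day of harvest, on which the study's design pairs them. The total of 652 calls was 1052 with the array position block, 1039 and 1038 with the block after quantile and median scaling, 1086 with array weights, and 273 with transcript clusters below the median signal left out, which tests fewer transcript clusters. Leaving out 1 steer gave 464 to 1169, the most without high intake steer 1, the only array of its group in the first 8 columns. The 237 higher calls were 534 with the block, 541 and 542 with the block and either scaling, 486 in the 8 arrays with the block, 423 and 430 after quantile and median scaling, and 141 above the median signal (leave-one-out 209 to 349). The 415 lower calls were 132 above the median signal and 775 with array weights (leave-one-out 255 to 892). The 1 adjusted call became 0 in the 8 arrays alone with or without the block, without moderation and after median subtraction. It was also 0 above the median signal, where the dim transcript cluster 12912549 (mean 5.23) is left out before testing. Leaving out 1 steer gave 1 without high intake steer 3 or low intake steer 4, and 0 without any other. The 753 transcript clusters whose intake difference differed between gain groups were 1322 with the block, 1152 and 1276 with the block and either scaling, and 294 above the median signal (leave-one-out 575 to 851). The cause was not tested where no change of construction is named.

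Of 61 named genes called, none changed direction, 21 kept their call under every alternative run and 50 with the block. Without high intake steers 1 to 4, calls were lost for 15, 16, 20 and 24 genes, and without low intake steers 1 to 4 for 16, 27, 14 and 18. Among genes not called, leaving out 1 steer gave -0.25 to 0.10 for FABP3, positive without high intake steer 1 or low intake steer 4, and -0.11 to 0.00798 for PPP1CA, positive without low intake steers 1 or 2 and, at 0.012, after median subtraction. It gave -0.19 to 0.63 for IGF1 and -0.32 to 0.57 for GHR, both negative without low intake steer 4 alone.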
